A study of Macaca mulatta with 6 samples.

Results

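The genes described here are PTS and SPR, for making tetrahydrobiopterin, the cofactor of tryptophan hydroxylase, and GCHFR, for regulating its synthesis. They were taken as every probe set whose platform annotation gave exactly 1 gene symbol and that symbol was one of these. Each gene had 1 such probe set, so the members are 3 genes of the 14132 named on the array. RNA came from serotonin neurons cut by laser capture out of the dorsal raphe nucleus of female rhesus macaques (Macaca mulatta), and 1 array was hybridised per monkey. Placebo, estrogen, and estrogen combined with progesterone were each given to 2 monkeys. The steroids were given as subcutaneous capsules for 1 month. The placebo titles include Ovx, taken here to mean ovariectomized; no such tag stands in the hormone titles. Age is not given in the sources used here.

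Tetrahydrobiopterin is made from GTP in a short pathway. GTP cyclohydrolase, the product of GCH1, takes the first and rate-limiting step. The product of PTS, 6-pyruvoyl-tetrahydropterin synthase, takes the next one, and the product of SPR, sepiapterin reductase, the last. GCHFR encodes a regulatory protein that binds GTP cyclohydrolase and lets tetrahydrobiopterin inhibit its own synthesis. The finished cofactor is used by the tryptophan and tyrosine hydroxylases and by the nitric oxide synthases, so serotonin and catecholamine neurons both depend on it. In the RefSeq gene order of the T2T-MMU8v2.0 assembly, PTS lies between BCO2 and PLET1, SPR between EMX1 and EXOC6B, and GCHFR between RMDN3 and DNAJC17. GCHFR overlaps RMDN3 in that annotation. Which part of each gene the probes match is not given in the sources used here.

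Background was unequal between arrays, which touches each result below. As a floor for each array, the 95th percentile was taken over 59 control probe sets that have no expected target. Between 28.7% and 62.2% of the probe sets for transcripts were above it. Placebo 1, placebo 2 and estrogen+progesterone 2 had shares below the mean of the 6 arrays and are called low-signal arrays, and the other 3 are called high-signal arrays. The class names refer to this share only. The median deposited signal ran the other way, at 160 to 170 on the low-signal arrays and 49.0 to 73.8 on the high-signal ones. This grouping was made after the values were seen. Estrogen+progesterone 2 stood apart from the rest: across the tested probe sets its r was 0.00048 with the other array of its group, -0.05 and -0.04 with the estrogen arrays and 0.29 to 0.33 with the placebo arrays. Each result for the combined treatment includes this array unless stated. Since the placebo arrays were both in the low-signal class and the estrogen arrays both in the other, the effects of estrogen and of array signal cannot be told apart. Of the serotonin neuron markers named on the array, 4 of 7 passed the floor on every high-signal array and 2 of 7 on every low-signal array; TPH2, which encodes the neuronal tryptophan hydroxylase, was above it on 2 of the 6 arrays. For the 7 together, deposited signal added up to 1666 to 1879 in the placebo animals and 898 to 1558 after estrogen. After the combined treatment it was 1412 to 2074. These sums include signals below the floor, which was 216 and 221 on the placebo arrays but 30.0 and 51.6 on the estrogen arrays. On estrogen+progesterone 2, which had the highest sum, the floor was 283. Background therefore enters the sums unequally, and they do not rank the arrays by serotonin marker content. On every high-signal array 6 of 6 general neuronal, 5 of 6 astrocyte markers and 3 of 3 oligodendrocyte markers also passed the floor. The summed astrocyte signal was 14264 to 14361 with placebo, 42257 to 46222 with estrogen and 2387 to 47029 with the combined treatment. For neuronal markers these ranges were 7279 to 11971, 27014 to 29820 and 2298 to 24531, and for oligodendrocyte markers 33032 to 46466, 36454 to 52137 and 2467 to 49820.4. The part of these differences in the results was not tested.

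PTS had higher signals on the 4 treated arrays than on the placebo arrays, though on placebo 2 and estrogen+progesterone 2 it was below the floor, so the order of those 2 arrays is not settled. Signals of 90.0 and 185 on the placebo arrays compared with 287 and 298 after estrogen and 305 and 207 after the combined treatment. The estrogen pair was close together, at 8.34 ± 0.017 on the normalized log2 scale (SD, n = 2), while placebo stood at 6.65 ± 0.67 and the combined treatment at 7.81 ± 0.89. Set against the floor of each array, PTS stood at 0.417 and 0.838 times the floor in the placebo animals, at 9.57 and 5.76 times after estrogen, and at 4.08 and 0.731 times after the combined treatment. It therefore passed the floor on the 3 high-signal arrays and on none of the low-signal arrays, a pattern held by 2868 (10.9%) of the 26383 probe sets tested. Ranked within each array, PTS lay between the 80.2nd and 81.8th percentile of all probe sets on the high-signal arrays and between the 33.8th and 57.3rd on the low-signal arrays. On estrogen+progesterone 2 it was nearer to placebo 2 than to its own group's other array.

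**Figure D1:**
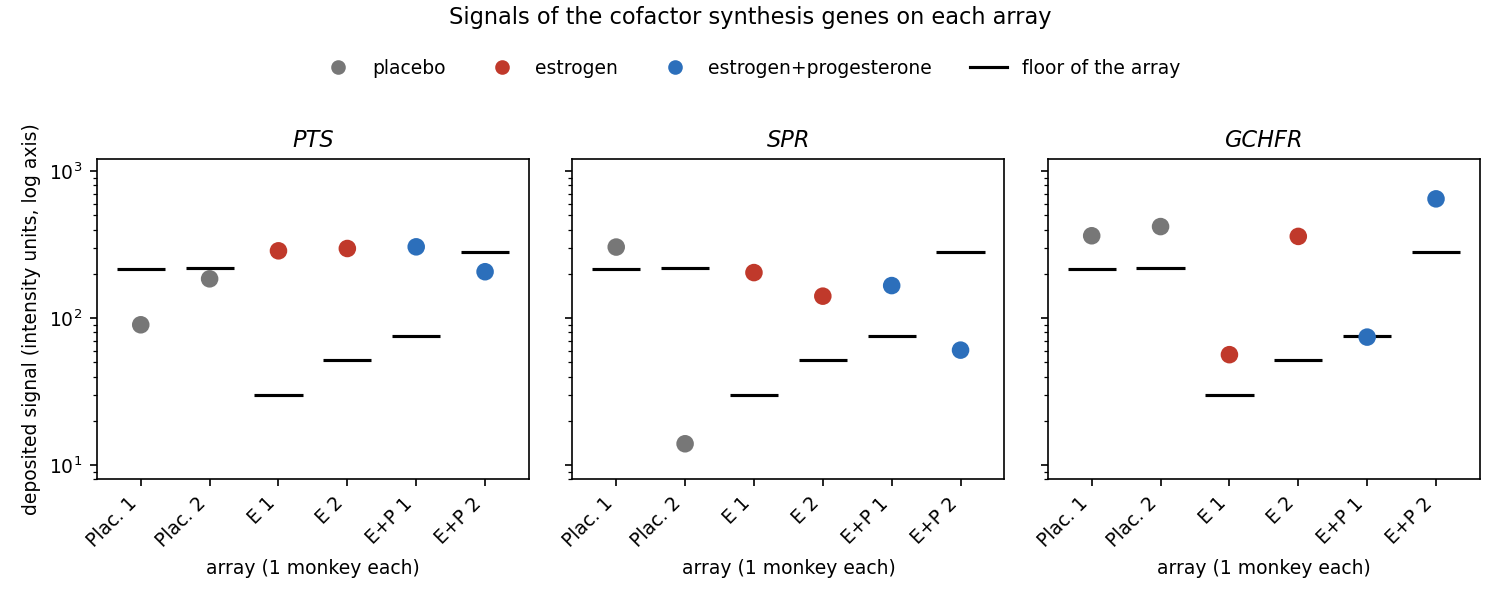
Deposited signal of PTS, SPR and GCHFR (log axis) on each of the 6 arrays, with 1 point per monkey colored by treatment and a black bar at the floor of that array. PTS was above the bar on both estrogen arrays and estrogen+progesterone 1 and below it on the other 3 arrays, SPR was below it on placebo 2 and estrogen+progesterone 2, and GCHFR lay close to it except on estrogen 2.

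For estrogen minus placebo the log2 difference of PTS was 1.69 ± 0.87 (SE, n = 2 monkeys per group), with a 95% interval from -0.25 to 3.64. It did not pass the test, with adjusted p = 0.651 from limma. Limma called 0 of the 26383 probe sets for estrogen against placebo (0.0%); an unadjusted p under 0.05 was reached by 2065. Since neither placebo array showed PTS above the floor, it has only a bound there, higher with estrogen by at least 1.90-fold against that floor after normalization. The size of the bound depends on the normalization. As deposited, the estrogen signals of 287 and 298 stood over placebo floors of 216 and 221. The bound carries no allowance for the spread between monkeys. Of all probe sets tested, 4323 (16.4%) were above the floor on both estrogen arrays and on neither placebo array. The PTS groups did not overlap in this direction, as was the case for 29.0% of all probe sets tested. For the combined treatment minus placebo, over the same placebo arrays, the difference was 1.16 ± 0.87 with an interval from -0.79 to 3.10 and adjusted p = 0.992 from limma. Measured values did not overlap here either, against 12.4% of all probe sets, but this rests on the order of placebo 2 and estrogen+progesterone 2, which turns round relative to the floor. Without estrogen+progesterone 1 this difference was 0.53, without placebo 1 it was 0.69 and without estrogen+progesterone 2 it was 1.79. For the combined treatment minus estrogen it was -0.54 ± 0.87, with an interval from -2.48 to 1.41 and adjusted p = 0.854. Limma called 0.0% of the probe sets in both of these comparisons too, with 870 and 464 at an unadjusted p under 0.05. Without estrogen+progesterone 2 the last difference was 0.094. With array signal class as a covariate, estrogen minus placebo was 0.44. The covariate was estimated from the pair of estrogen+progesterone arrays alone, since signal class differed within no other group. It therefore does not separate estrogen from array signal.

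SPR varied most within the placebo pair. The placebo signals were 304 and 13.95, those after estrogen 204 and 141, and those after the combined treatment 166 and 60.5. Placebo 1 had the highest signal and placebo 2 the lowest, so the placebo signals enclosed all 4 treated ones. Between these 2 arrays SPR went from the 77.8th to the 4.14th percentile of all probe sets. On the normalized log2 scale placebo stood at 6.40 ± 2.51, estrogen at 7.85 ± 0.32 and the combined treatment at 6.79 ± 1.46 (SD, n = 2 each). SPR passed the floor on the 3 high-signal arrays and on placebo 1, and 2234 (8.47%) of the probe sets tested did so on exactly these arrays. The 3 high-signal arrays gave 6.80, 2.73 and 2.22 times the floor, in the order estrogen 1, estrogen 2 and estrogen+progesterone 1. Placebo 1 gave 1.41 times, so relative to the floor it was below these 3 arrays.

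The SPR log2 difference was 1.45 ± 1.23 (SE, n = 2 monkeys per group) for estrogen minus placebo, 0.39 ± 1.23 for the combined treatment minus placebo, and -1.06 ± 1.23 for the combined treatment minus estrogen. The intervals ran from -1.29 to 4.19, from -2.34 to 3.13 and from -3.79 to 1.68. None passed, with adjusted p of 0.753, 0.992 and 0.806 from limma. The direction against placebo changed with the arrays used: without placebo 2 the differences were -0.33 for estrogen and -1.38 for the combined treatment, and without estrogen+progesterone 1 the latter was -0.64. Without placebo 1 they were 3.23 and 2.17, but these set the treated arrays against placebo 2 alone, where SPR was at 0.0632 times the floor, so they have no exact size. Without estrogen+progesterone 2 the difference between the combined treatment and estrogen was -0.021.

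GCHFR, the regulator of GTP cyclohydrolase, had higher deposited signals on the low-signal arrays than on the high-signal ones. The median over the probe sets for transcripts was also higher there. GCHFR gave 363 and 419 in the placebo animals, 56.4 and 359.6 after estrogen, and 74.2 and 648 after the combined treatment. The arrays of each treated group differed widely, and estrogen 2 was close to the placebo arrays. Relative to the floor the values were 1.68 and 1.90 times in the placebo animals, 1.88 and 6.97 times after estrogen, and 0.990 and 2.29 times after the combined treatment. On the 5 arrays other than estrogen 2, GCHFR therefore lay between 0.990 and 2.29 times the floor. Its percentile among all probe sets was 84.0 and 88.3 in the placebo animals, 53.4 and 82.9 after estrogen, and 50.2 and 97.1 after the combined treatment. All 3 low-signal arrays were above all 3 high-signal arrays in normalized value, as for 15.7% of the probe sets tested; PTS had the opposite order, as did 21.6%.

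The GCHFR log2 difference was -1.001 ± 1.16 (SE, n = 2 monkeys per group) for estrogen minus placebo, -0.17 ± 1.16 for the combined treatment minus placebo and 0.83 ± 1.16 for the combined treatment minus estrogen. The intervals ran from -3.59 to 1.59, from -2.75 to 2.42 and from -1.75 to 3.42. None passed, with adjusted p of 0.820, 0.997 and 0.828 from limma. The estrogen arrays were both below the placebo arrays, as for 24.8% of all probe sets tested, but estrogen 2 at 359.6 was next to placebo 1 at 363. The difference of estrogen minus placebo was -0.25 without estrogen 1 and -1.75 without estrogen 2, and 2.41 with array signal class as a covariate. Scaled to the 27 hybridization control probe sets, it was 0.91, beside a median of 2.19 over all probe sets tested. The sign for the combined treatment also changed with the arrays used: against placebo the difference was -1.87 without estrogen+progesterone 2 and 1.54 without estrogen+progesterone 1, and against estrogen it was -0.87 and 2.54. Without placebo 2, the combined treatment minus placebo was 0.0073.

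**Figure D2:**
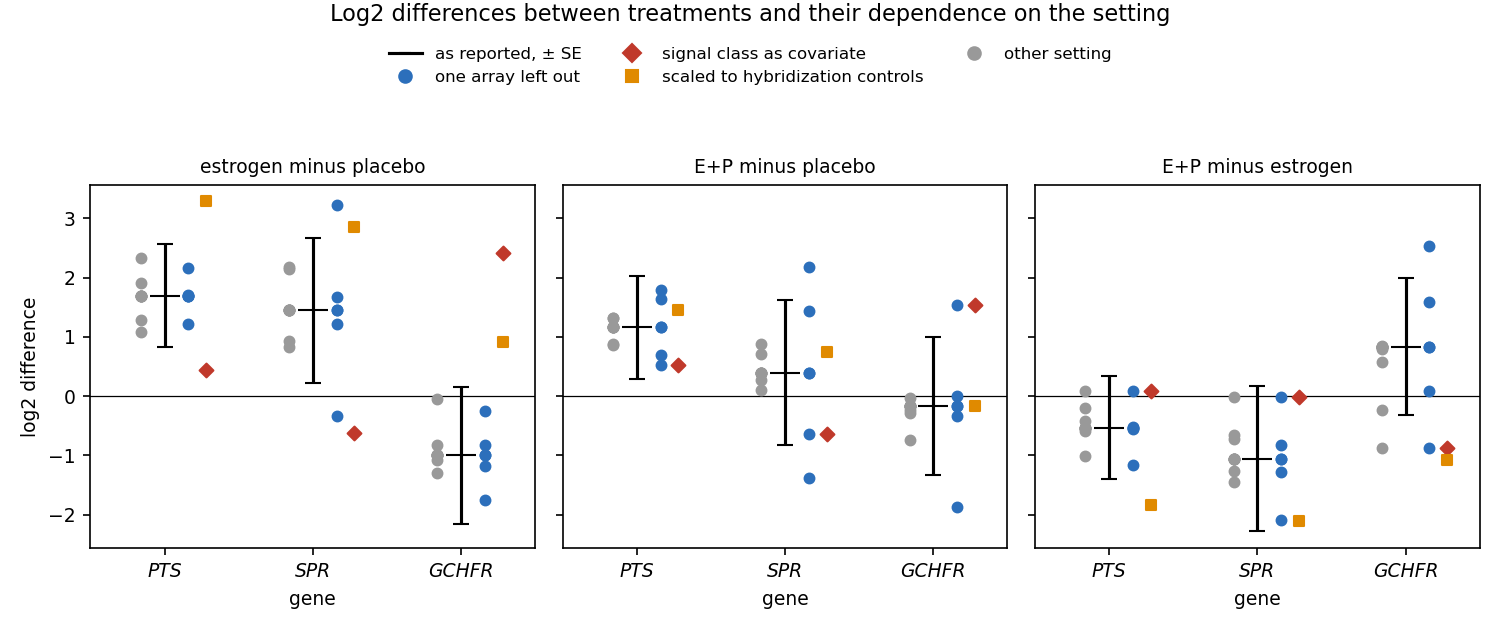
Log2 difference of PTS, SPR and GCHFR in the 3 comparisons of treatments, with the reported value and its standard error in black and the values under other settings as points. For PTS the points for both comparisons with placebo were all above 0, at 1.08 to 3.28 for estrogen apart from 0.44 with array signal class as a covariate, while those of SPR and GCHFR lay on both sides of 0 in most panels.

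The 3 genes did not share 1 pattern over the arrays. Across the 6 normalized values, Pearson's r was 0.29 for PTS with SPR, -0.61 for PTS with GCHFR and -0.65 for SPR with GCHFR. These are descriptions over 6 arrays that differ in signal. Against the other tested probe sets, the PTS difference lay at the 89.5th percentile for estrogen minus placebo and at the 87.3rd for the combined treatment minus placebo, SPR at the 85.5th and 65.9th, and GCHFR at the 17.9th and 44.6th. The median difference over all tested probe sets was 0.17 for estrogen minus placebo, -0.03 for the combined treatment minus placebo and -0.22 for the combined treatment minus estrogen.

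Of 22 other genes listed for making, recycling and using the cofactor and for handling serotonin, 14 had a named probe set and 10 entered the test. None passed in any comparison. Differences were above 0 for 8 of 10 with estrogen, for 6 of 10 with the combined treatment and for 4 of 10 when the combined treatment were set against estrogen. The medians were 0.45, 0.13 and -0.15. Over all probe sets tested 55.2%, 48.8% and 42.6% were above 0. The listed genes were counted by their brightest probe set, and the 8 include PCBD1 at 0.0011 ± 0.89.

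GCH1, the first enzyme of the pathway and the partner of GCHFR, passed the floor on each of the 6 arrays. It gave 279.7 and 331 in the placebo animals, 216 and 165 after estrogen, and 236 and 300.3 after the combined treatment. These signals were lowest on the estrogen arrays, but so were the floors, at 30.0 for estrogen 1 and 51.6 for estrogen 2. Floors elsewhere ran from 74.9 to 283. Relative to the floor of each array, GCH1 stood highest on the estrogen arrays, though estrogen 2 was close to estrogen+progesterone 1. The log2 difference was -0.23 ± 0.81 (SE, n = 2 monkeys per group) for estrogen minus placebo and -0.11 ± 0.81 for the combined treatment minus placebo, with adjusted p of 0.944 and 0.997 from limma. CBR1, a carbonyl reductase that can stand in for sepiapterin reductase, was at 1999 and 1447 in the placebo animals, 7817 and 3778 after estrogen, and 5158 and 1145 after the combined treatment. It was above the floor everywhere, and its difference for estrogen minus placebo was 0.48 ± 0.84 after normalization.

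Among the genes that regenerate the cofactor, PCBD1, a pterin dehydratase, was seen by 2 probe sets that disagreed. The brighter one was at 689 and 731 in the placebo animals, 1944 and 1059 after estrogen, and 1742 and 359 after the combined treatment, a difference of 0.0011 ± 0.89 for estrogen minus placebo. The other gave 14.6 and 36.7, then 252 and 544, then 259 and 61.6, a difference of 3.61. Neither placebo array showed it above the floor, so it has only a bound, at least 2.26-fold higher with estrogen after normalization. Like PTS, this second probe set passed the floor on the 3 high-signal arrays and on no other. PCBD2, a related dehydratase, stood at 0.79 ± 0.95 for estrogen minus placebo and 1.03 ± 0.95 for the combined treatment minus placebo. QDPR, which encodes the dihydropteridine reductase, had no named probe set here.

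Of the enzymes that use tetrahydrobiopterin, TPH2 was at 126 and 211 in the placebo animals, 54.0 and 63.2 after estrogen, and 12.5 and 243 after the combined treatment. It was above the floor on the estrogen arrays alone, where all 3 members were also above it, and its mean was below the filter for the test. TH, the tyrosine hydroxylase of catecholamine neurons, was at 138 and 63.96 in the placebo animals, 1074 and 149 after estrogen, and 708 and 31.4 after the combined treatment. Its difference for estrogen minus placebo was 2.36 ± 1.32, with adjusted p = 0.660 from limma. Neither placebo array showed TH above the floor, so it has only a bound, higher with estrogen by at least 2.31-fold after normalization. That bound averages estrogen 1 with estrogen 2, whose deposited signal of 149 was below both placebo floors (216 and 221). It is therefore no minimum for each estrogen array. A second TH probe set was below the floor on all 6 arrays. TPH2 and probe sets of NOS2, NOS3 and MAOA also passed the floor on both estrogen arrays and on neither placebo array. Their normalized estrogen means did not exceed the placebo floor, so they have no bound. SLC6A3, the dopamine transporter gene, was at 7760 on estrogen 1 and at 155 to 1993 on the other 5 arrays. The other catecholamine markers listed, DBH and SLC6A2, were not high there. DBH was at 286 and 31.2 in the placebo animals, 28.2 and 53.7 after estrogen, and 71.1 and 309 after the combined treatment. It passed the floor on 3 arrays and SLC6A2 on 0. Cells that make dopamine also use the cofactor; their part in the PTS and SPR values was not tested. Fewer cells of a type and less RNA per cell cannot be told apart in such captured material. TPH1 and NOS1 were below the floor on all 6 arrays, and NOS2, NOS3 and AGMO were above it on 3, 3 and 1. Of the genes listed for handling serotonin, MAOA, a monoamine oxidase gene, and FEV, a transcription factor gene of serotonin neurons, passed the floor on each of the 6 arrays. The vesicular transporter gene SLC18A2 did on 4. These counts are for the brightest probe set of each gene. Other probe sets passed on 4 and 2 arrays for MAOA, on 2 for SLC18A2, and on 2 at most for NOS2 and NOS3. AKR1B1, AKR1C3, DDC, SLC6A4 and MAOB had no named probe set here.

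**Figure D3:**
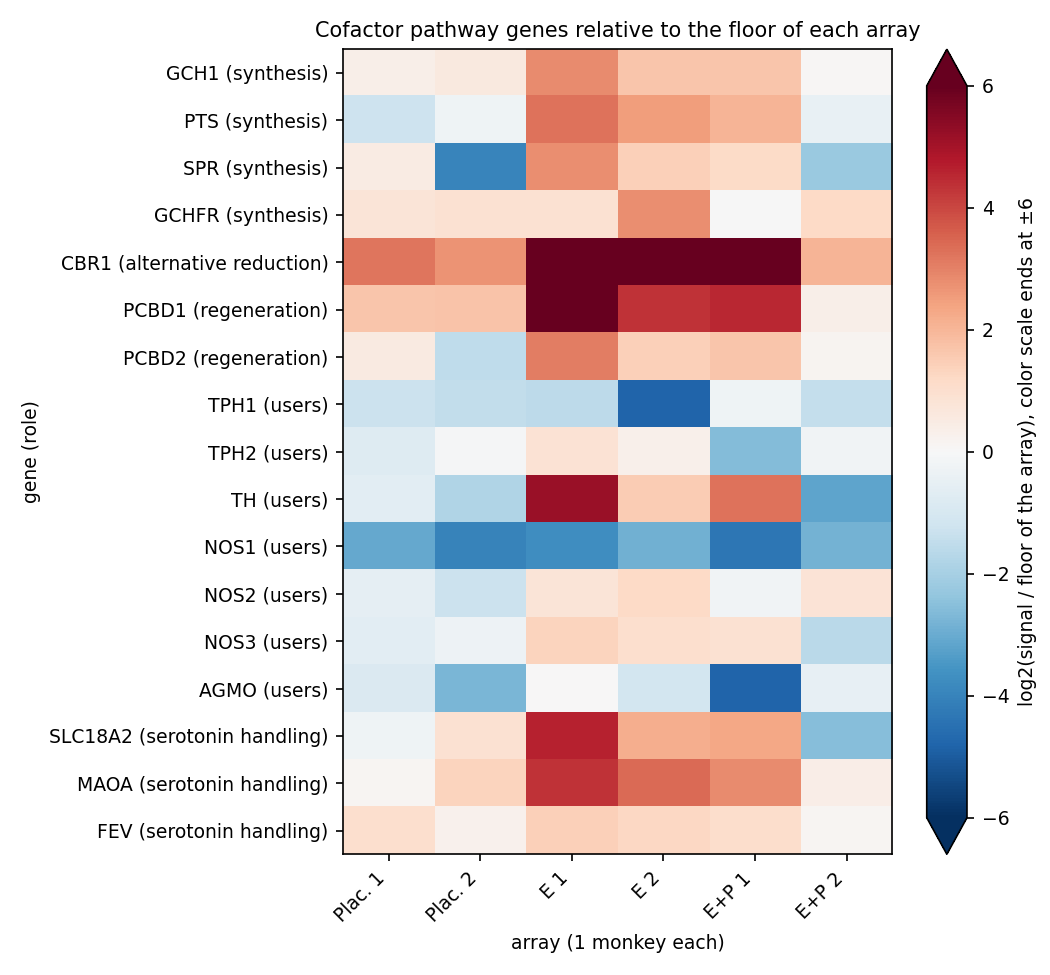
Signal of each named pathway gene, by its brightest probe set, divided by the floor of the array, as log2 in color. The 17 genes are in rows by role and the 6 arrays in columns, and white marks a signal at the floor. PTS and TH passed it on the 3 high-signal arrays only, GCHFR stayed near it except on estrogen 2, and GCH1, CBR1, MAOA and FEV were above it on all 6.

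The genes most like each member were taken by the highest Pearson's r of normalized log2 values over the 6 arrays, among 9129 other named genes, each represented by its brightest tested probe set. For PTS these were SENP7, which encodes a SUMO protease, TMEM109, BEND5, PCGF1, a polycomb protein gene, and FAM222A, with r of 0.993 to 0.994. All 5 passed the floor on the 3 high-signal arrays and on none of the others. In all, 416 genes (4.56%) had an r above 0.9 with PTS. For SPR they were ST13, which encodes a cochaperone of HSP70, RAB3GAP1, a regulator of RAB3, ITGA2, an integrin subunit, TOX4 and NTNG2, with r of 0.990 to 0.994. These 5 also passed the floor on the 3 high-signal arrays and on 1 low-signal array, and 389 genes (4.26%) had an r above 0.9 with SPR. For GCHFR they were SLC7A8, an amino acid transporter gene, ZMAT2, MYADML2, TFEC and LAG3, with r of 0.976 to 0.996. Of these, ZMAT2 alone passed the floor on each of the 6 arrays, and 117 genes (1.28%) had an r above 0.9 with GCHFR. With 6 arrays that differ in signal, such values describe these arrays only.

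**Figure D4:**
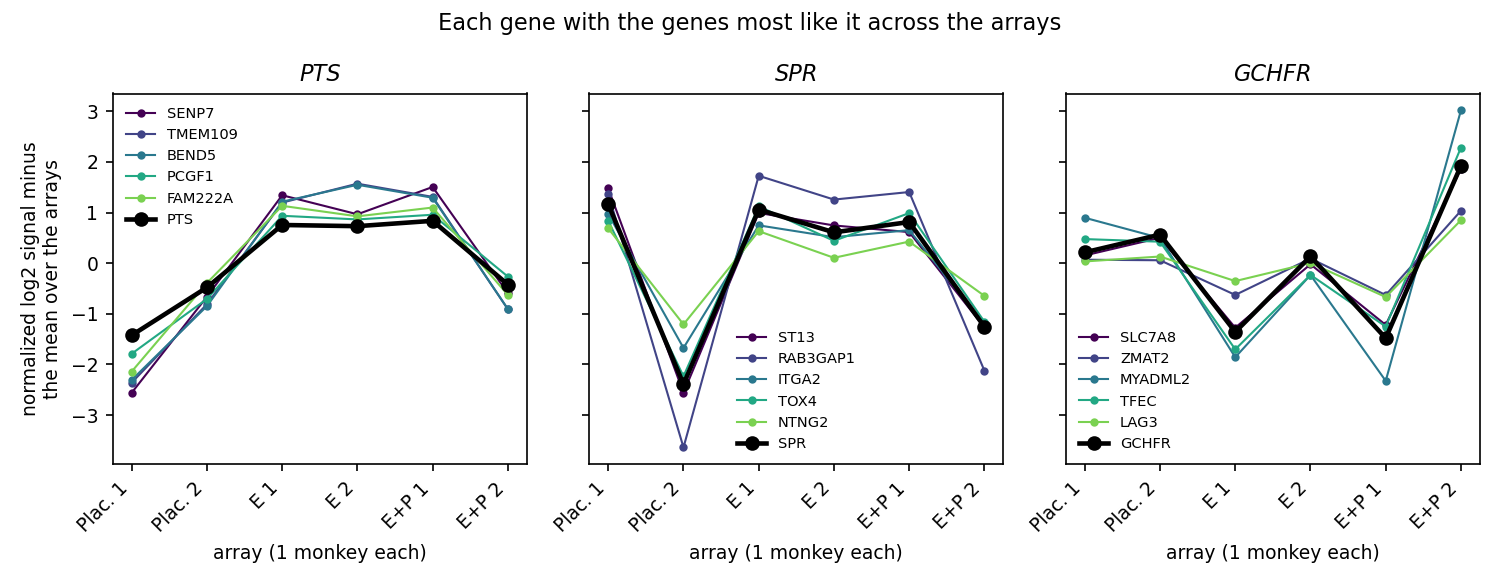
Normalized log2 signal minus its mean over the 6 arrays for PTS, SPR and GCHFR (black) and the 5 genes most like each (colors), with 1 point per array. The PTS panel is higher on the 3 high-signal arrays, the SPR panel is lowest on placebo 2 and estrogen+progesterone 2, and the GCHFR panel is highest on estrogen+progesterone 2.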

How the data were processed

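The authors deposited a table of linear intensities, 1 value for each probe set on each array, as its range shows; the trimmed mean of every array (2% off each end) was about 200. The summarization method is not given in the sources used here. Names came from the supplied platform annotation, updated by gene number through the RefSeq gene table, which held 24616 of the 24956 probe sets with 1 symbol; 52766 measured transcripts. Values were converted as log2(intensity + 16) and quantile normalized, so a log2 difference understates changes of low signals. Without controls, and with the lower 50% by mean filtered off, 26383 probe sets were tested. limma 3.58.1 (R 4.3.3) fitted a mean per treatment to the 6 arrays together (3 residual degrees of freedom, two-sided, Benjamini-Hochberg threshold 0.05). No permutation test was run, because 2 arrays against 2 allow no exact p under 0.333. The number of arrays limits the precision. The fit was run on simulated data with known changes, and its recovery at the spread of these arrays is not reported here. The members and lists were chosen with earlier results of these data known. Genes named are the members, the listed pathway genes by their brightest probe set, and the 5 genes most like each member. SLC6A3, DBH and SLC6A2 were named after their values were seen. Alternatives varied the offset, normalization, filter, arrays, prior, weights, replicate block and signal class.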

Additional observations from a re-analysis of the deposited data

How the results depend on the processing

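No member passed limma's threshold under any setting: the smallest adjusted p was 0.167 over 105 values under other settings, of which 94 kept their direction, and 0.0797 over 54 values with an array left out. PTS kept its sign in both comparisons with placebo under all settings run. Changing the filter, replicate block, prior, weights or the groups fitted returned the reported differences unchanged, so those values could not reverse. The same held where the array left out belonged to neither group compared. Array signal class as a covariate gave, for estrogen minus placebo, -0.62 for SPR and 2.41 for GCHFR. For the combined treatment minus placebo it gave -0.64 and 1.54, by construction the same values as without estrogen+progesterone 1. For the combined treatment minus estrogen it gave 0.094 for PTS and -0.87 for GCHFR, and so, by construction, did the high-signal arrays alone, a setting chosen after seeing the data: both subtract the estrogen mean from estrogen+progesterone 1. Scaling to hybridization controls, also chosen after seeing the data, gave 0.91 for GCHFR for estrogen minus placebo and -1.08 for the combined treatment minus estrogen, where median-centering gave -0.23. It moved the median of all tested probe sets to 2.19, 0.49 and -1.64 in the 3 comparisons. The cause of these reversals was not tested. Leaving out an array leaves a group with a lone array assumed to vary like the others. SPR then ranged from -0.33 to 3.23 for estrogen and from -1.38 to 2.17 for the combined treatment, both against placebo. GCHFR ranged from -1.87 to 1.54 against placebo and from -0.87 to 2.54 against estrogen, and PTS from 0.53 to 1.79 and from -1.16 to 0.094, all for the combined treatment. For estrogen minus placebo PTS ranged from 1.22 to 2.17 and GCHFR from -1.75 to -0.25. Over all probe sets, array weights called 434 for estrogen minus placebo. The count for the combined treatment minus estrogen lay between 0 and 4200 with an array left out, 4200 being without estrogen+progesterone 1; neither 434 nor 4200 included a member. PTS and SPR were below the filter at the 75th percentile. Same-numbered arrays share only a number: their deviations correlated at -0.06 to 0.08 between groups, and with the replicate number as a block limma called 0 in each comparison.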
